A study of Mus musculus with 24 samples.

Results

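Transcripts of the nuclear genes for respiratory complex I were followed in whole mouse hearts under pressure overload and under voluntary exercise. The genes were taken by name, as all rows of the deposited count table whose Ensembl identifier maps to a symbol beginning with Nduf, with names containing -ps left out. There were 49 such genes among 43432 identifiers. They comprise 7 core subunits of the peripheral arm, 9 accessory subunits of that arm, 19 accessory subunits of the membrane arm, the acyl carrier protein gene Ndufab1, the pair Ndufa4 and Ndufa4l2, the 8 assembly factors Ndufaf1 to Ndufaf8, and 3 further copies (Ndufa11b, Ndufb4c and Ndufs6b). Ndufa11b and Ndufs6b had counts near 0 and did not pass the filter on low counts, so that 47 genes were tested in each comparison.

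Total RNA was sequenced after ribosomal RNA depletion in 24 libraries from hearts of C57BL/6 mice, 4 in each of 6 groups. The groups were hearts after 2 weeks of transverse aortic constriction (labelled TAC-LVH, for left ventricular hypertrophy) and their shams (Sham-LVH), hearts after 8 weeks of constriction (labelled TAC-HF, for heart failure) and their shams (Sham-HF), and hearts of mice with 8 weeks of wheel running and of sedentary mice. Transverse aortic constriction (TAC) is a surgical narrowing of the aorta that forces the left ventricle to pump against a raised pressure. The labels give no genetic change in any group, no sex, no age, no time after sham surgery, and do not say whether a library holds 1 heart or several, so p-values measure only the spread between these libraries.

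Complex I takes electrons from NADH, passes them through a chain of iron-sulfur clusters in its peripheral arm to ubiquinone, and uses the energy to pump protons through its membrane arm. The catalytic core is shared between genomes: the core subunits of the peripheral arm are nuclear, and those of the membrane arm are encoded in mitochondrial DNA as mt-Nd genes. Accessory subunits surround the core, and assembly factors help to build the complex without staying in it. The heart depends on it because cardiomyocytes make most of their ATP by oxidative phosphorylation. Ndufa4 carries the family name but is now placed with cytochrome c oxidase (complex IV), and Ndufa4l2 is its hypoxia-inducible relative.

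RefSeq start sites on GRCm38.p6 were found for 40 of the 49 genes, and the 250 bases before each start were searched on both strands for the letters of binding motifs of regulators of mitochondrial genes. The motif of nuclear respiratory factor 1 (NRF1, GCGCANGCG, where N is any base) lay before 7 of the 40 complex I genes, or 17.5%, against 5.86% of all 27025 genes in the same table. CCGGAAG (GABP and other ETS factors) lay before 12.5% of complex I genes against 7.83% of all genes, and AAGGTCA (estrogen-related receptors) before 7.5% of complex I genes against 4.70% of all genes. AAGATGGCG (YY1) lay before 0% of complex I genes against 0.710% of all genes. The shares of all genes cover every gene in that table, with no matching for gene type, expression or base composition. None of the 4 motifs contains another, and a match is a description of the sequence, not a site. The first 3 sequences below belong to the core, accessory peripheral and accessory membrane genes with the smallest p in the 2-week TAC comparison. None of the 4 motifs is in these 3 windows, so that they carry no capitals. The 4 windows after them were picked, after the matches were seen, as examples, and every match in them, on either strand, is in capitals. The Ndufa8 window holds 2 NRF1 matches and the others 1 match each. All 7 lie on the minus strand and are written 5′ to 3′ in the direction of the gene.
Ndufv1, chr19:4012756-4013005: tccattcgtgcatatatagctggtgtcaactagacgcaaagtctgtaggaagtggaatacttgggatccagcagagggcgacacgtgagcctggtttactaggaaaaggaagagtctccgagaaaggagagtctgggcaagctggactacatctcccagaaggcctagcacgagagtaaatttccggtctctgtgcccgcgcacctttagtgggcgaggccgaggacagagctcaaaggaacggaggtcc
Ndufa9, chr6:126849145-126849394: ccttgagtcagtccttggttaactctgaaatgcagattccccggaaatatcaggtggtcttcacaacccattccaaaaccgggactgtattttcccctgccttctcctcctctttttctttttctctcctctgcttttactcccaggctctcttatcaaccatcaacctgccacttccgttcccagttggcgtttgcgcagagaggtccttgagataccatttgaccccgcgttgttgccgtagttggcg
Ndufa10, chr1:92473759-92474008: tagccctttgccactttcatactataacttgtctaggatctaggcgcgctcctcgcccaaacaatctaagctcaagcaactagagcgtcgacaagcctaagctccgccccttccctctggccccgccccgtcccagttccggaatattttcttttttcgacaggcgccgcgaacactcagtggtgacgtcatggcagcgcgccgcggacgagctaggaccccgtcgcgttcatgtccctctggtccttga
Ndufa8 with the NRF1 motif, chr2:36049339-36049387: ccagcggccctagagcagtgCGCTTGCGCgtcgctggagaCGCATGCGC
Ndufs3 with the GABP motif, chr2:90904722-90904768: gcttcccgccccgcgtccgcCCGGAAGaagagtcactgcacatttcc
Ndufs5 with the receptor motif, chr4:123718388-123718434: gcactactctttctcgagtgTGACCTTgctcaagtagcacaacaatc
Ndufs5 with the NRF1 motif, chr4:123718256-123718304: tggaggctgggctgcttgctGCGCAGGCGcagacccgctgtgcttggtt

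Libraries held 16802939 to 39512101 estimated counts (median 22845050), of which 41375 to 106711 fell on the complex I genes. Mitochondrially encoded genes took 50.7% to 58.4% of counts in TAC-LVH libraries against 59.8% to 64.5% in Sham-LVH, and 52.7% to 57.6% in TAC-HF against 61.3% to 67.0% in Sham-HF. Levels below are normalized CPM, each count divided by its library's effective size (TMM factors over all 24 libraries) and put on a common scale, which compare 1 gene between samples and not genes with each other. Genes were called at an adjusted p under 0.05 in edgeR's quasi-likelihood test, with adjustment over all genes tested.

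After 2 weeks of TAC, transcripts of nuclear complex I genes were mostly lower than in the shams. Of 47 tested genes, 29 (61.7%) were called lower than in Sham-LVH hearts, against 16.1% of all 14224 genes tested, and 1, Ndufa4l2, was called higher, against 17.1% of all genes. The fold change was negative for 46 of the 47. The median log2 fold change was -0.54, against -0.0021 over all genes tested. Among them were core subunits such as Ndufv1 and Ndufs7, 7 of 9 accessory subunits of the peripheral arm, 9 of 19 of the membrane arm, Ndufab1, 4 of 8 assembly factors and the copy Ndufb4c.

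Summed over the 36 subunit genes, the level was 1521, 2118, 2292 and 1894 normalized CPM in TAC-LVH libraries 1 to 4, against 2558, 3144, 3592 and 2788 in Sham-LVH libraries 1 to 4. The 2 groups did not overlap, but TAC-LVH 3 and Sham-LVH 1 came within a short distance of each other. For single genes, all 4 TAC libraries lay below all 4 shams in 24 of 47, against 16.3% of all genes tested, and above them in 1, against 16.5%. In whole-heart RNA, fewer cardiomyocytes and less RNA per cardiomyocyte cannot be told apart.

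**Figure D1:**
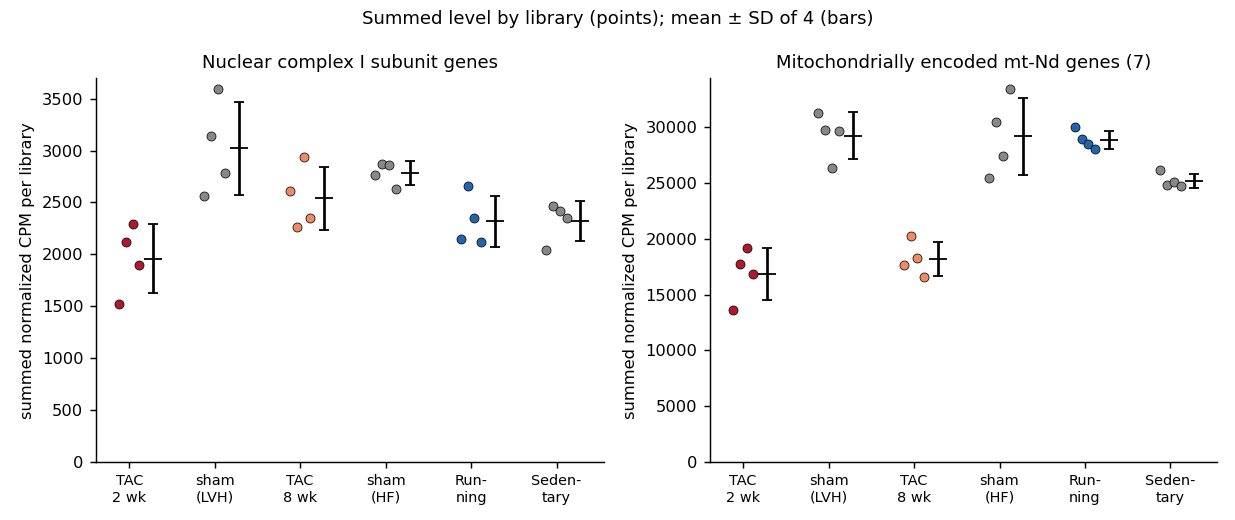
Summed normalized CPM of the 36 nuclear complex I subunit genes (left) and of the 7 mitochondrially encoded mt-Nd genes (right) on linear axes from 0; points are libraries, bars the mean and SD of 4. Nuclear sums of TAC hearts at 2 weeks (1521 to 2292) lie below their shams (2558 to 3592) and those at 8 weeks (2259 to 2936) overlap their shams (2631 to 2872), whereas the mt-Nd sums of both TAC groups lie below their shams.

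Among the core subunits, Ndufv1, which binds NADH and the flavin that takes its electrons, had 90.2, 101, 113 and 103 normalized CPM in TAC-LVH, against 165, 178, 201 and 169.6 in Sham-LVH. This is a log2 fold change of -0.80 ± 0.11 (SE; edgeR adjusted p = 9.1e-05), with TAC-LVH 3 as the highest TAC library still below Sham-LVH 1, the lowest sham. Ndufs7, which holds the last iron-sulfur cluster before ubiquinone, had 33.4, 47.7, 49.9 and 39.4 normalized CPM in TAC-LVH, against 62.9, 72.7, 90.5 and 66.4 in Sham-LVH (log2 fold change -0.77 ± 0.15, SE; edgeR adjusted p = 0.0013). Its groups did not overlap, and Sham-LVH 3 stood above the other shams. Ndufs1, the largest subunit of the NADH-oxidizing module, had 148, 160, 193 and 168 normalized CPM in TAC-LVH, against 236, 295, 308 and 271 in Sham-LVH (log2 fold change -0.72 ± 0.12, SE; edgeR adjusted p = 4.6e-04), again with no overlap. The core genes Ndufs3, Ndufs8 and Ndufv2 were called lower as well, with log2 fold changes of -0.66, -0.65 and -0.54.

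Among the accessory subunits of the peripheral arm the median log2 fold change was -0.62. Ndufa9, which sits where the peripheral arm meets the membrane, had 67.2, 88.3, 97.9 and 83.6 normalized CPM in TAC-LVH, against 105, 145, 155 and 127 in Sham-LVH. Its log2 fold change was -0.65 ± 0.14 (SE; edgeR adjusted p = 0.0030), and the groups did not overlap. Ndufa6, a partner of acyl carrier protein in the complex, had 27.9, 41.0, 43.2 and 36.0 normalized CPM in TAC-LVH, against 48.1, 58.8, 70.5 and 51.9 in Sham-LVH (log2 fold change -0.62 ± 0.15, SE; edgeR adjusted p = 0.0063). Each of its TAC libraries was below each sham. Ndufv3, Ndufa5, Ndufa12, Ndufs6 and Ndufs4 were also called lower, with log2 fold changes between -0.70 and -0.49, while Ndufa7 (-0.42, edgeR adjusted p = 0.14) and Ndufa2 (-0.32, edgeR adjusted p = 0.20) were not called.

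Ndufab1 encodes the mitochondrial acyl carrier protein, which also serves fatty acid and lipoic acid synthesis in mitochondria. It had 23.8, 28.9, 31.0 and 26.4 normalized CPM in TAC-LVH, against 45.2, 46.8, 46.6 and 44.9 in Sham-LVH. The log2 fold change was -0.73 ± 0.09 (SE; edgeR adjusted p = 6.9e-05), the smallest p among the 47 genes. The shams lay within a narrow range, 45.9 ± 0.946 (SD, n = 4), and all TAC-LVH libraries were well below it.

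In the membrane arm 9 of 19 accessory subunits were called lower, with a median log2 fold change of -0.53, and all 19 values were negative. Ndufa10, a nucleoside-kinase-like subunit on the matrix side, had 87.7, 103, 119.9 and 107 normalized CPM in TAC-LVH, against 154, 177, 200.2 and 178 in Sham-LVH (log2 fold change -0.76 ± 0.12, SE; edgeR adjusted p = 3.3e-04). Ndufa8, a twin-cysteine-motif subunit on the intermembrane-space side, had 14.3, 22.8, 19.2 and 18.4 normalized CPM in TAC-LVH, against 30.9, 29.1, 34.6 and 31.2 in Sham-LVH (log2 fold change -0.75 ± 0.12, SE; edgeR adjusted p = 4.9e-04). In both genes the groups were apart and TAC-LVH 1 was the lowest library. Ndufa13, Ndufb10, Ndufb7, Ndufs5, Ndufb9, Ndufb11 and Ndufb2 were called lower with log2 fold changes between -0.69 and -0.51. Ndufa1, Ndufa3, Ndufa11, Ndufb3, Ndufb4, Ndufb5, Ndufb6, Ndufb8, Ndufc1 and Ndufc2 were not called, with log2 fold changes between -0.62 for Ndufa3 and -0.26 for Ndufb3.

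Ndufb4 and Ndufb4c could not be told apart with certainty. Ndufb4c is annotated as a processed pseudogene, a copy made from a spliced transcript, and its sequence was 100% identical to Ndufb4 over 390 bases. Where another tested complex I gene matched a transcript of a different gene at 95% identity or more over at least 200 bases, that gene held at most 9.2% as many counts (Mrpl47 beside Ndufb5). Ndufb4 and Ndufb4c together had 31.1, 50.6, 55.0 and 44.4 normalized CPM in TAC-LVH, against 52.3, 67.7, 82.6 and 63.2 in Sham-LVH, and the groups overlapped. Ndufb4 held 54.1 to 59.9% of that sum in TAC-LVH and 53.3 to 58.2% in Sham-LVH. Singly, Ndufb4 had 17.5, 30.4, 29.7 and 24.4 normalized CPM in TAC-LVH, against 29.3, 36.8, 48.1 and 33.7 in Sham-LVH (log2 fold change -0.53 ± 0.19, SE; edgeR adjusted p = 0.054). Ndufb4c had 13.6, 20.3, 25.3 and 20.0 normalized CPM in TAC-LVH, against 23.0, 30.9, 34.5 and 29.5 in Sham-LVH (log2 fold change -0.57 ± 0.18, SE; edgeR adjusted p = 0.029). The groups of each gene overlapped, and Ndufb4c was no longer called without TAC-LVH 2 or 4 or Sham-LVH 2, 3 or 4 (edgeR adjusted p up to 0.088).

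The pair Ndufa4 and Ndufa4l2 had opposite signs. Ndufa4, the cytochrome c oxidase subunit, had 87.4, 138, 161 and 121 normalized CPM in TAC-LVH, against 139, 182, 210 and 159 in Sham-LVH. The groups overlapped, and the log2 fold change of -0.44 ± 0.18 (SE) was not called (edgeR adjusted p = 0.084). Ndufa4l2, described as a brake on oxygen use in hypoxic cells, had 3.59, 4.69, 4.64 and 3.80 normalized CPM in TAC-LVH, against 3.08, 2.01, 3.57 and 3.13 in Sham-LVH. Every TAC-LVH library was above every sham, though TAC-LVH 1 lay just over Sham-LVH 3, and the log2 fold change was 0.49 ± 0.17 (SE; edgeR adjusted p = 0.041). Ndufa4l2 was no longer called when TAC-LVH 2, 3 or 4 or Sham-LVH 1, 2 or 4 was left out, with edgeR adjusted p up to 0.11. It overlaps exons of Shmt2 on the opposite strand, whose own log2 fold change at 2 weeks was -0.31 (edgeR adjusted p = 0.054), and the strand setting of the counts is not given in the sources used here.

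Assembly factors had a median log2 fold change of -0.42, and all 8 values were negative. Ndufaf3 and Ndufaf4, which bind each other and help to build the ubiquinone module, were both called lower. Ndufaf3 had 4.49, 5.83, 6.21 and 6.23 normalized CPM in TAC-LVH, against 7.20, 9.83, 9.74 and 7.00 in Sham-LVH (log2 fold change -0.55 ± 0.15, SE; edgeR adjusted p = 0.011). Ndufaf4 had 15.4, 19.8, 20.6 and 19.7 normalized CPM in TAC-LVH, against 22.7, 34.4, 30.0 and 22.0 in Sham-LVH (log2 fold change -0.52 ± 0.15, SE; edgeR adjusted p = 0.015). In neither gene did the groups overlap. Ndufaf1, which builds the membrane arm together with Ecsit, had 8.01, 11.3, 12.1 and 9.47 normalized CPM in TAC-LVH, against 12.0, 14.1, 15.8 and 13.8 in Sham-LVH (log2 fold change -0.44 ± 0.13, SE; edgeR adjusted p = 0.020), where TAC-LVH 3 lay just above Sham-LVH 1. Ndufaf8, a partner of Ndufaf5, was called lower at -0.50. Ndufaf5, a hydroxylase of Ndufs7, Ndufaf7, Ndufaf6 and Ndufaf2 were not called, with log2 fold changes between -0.41 and -0.10.

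**Figure D2:**
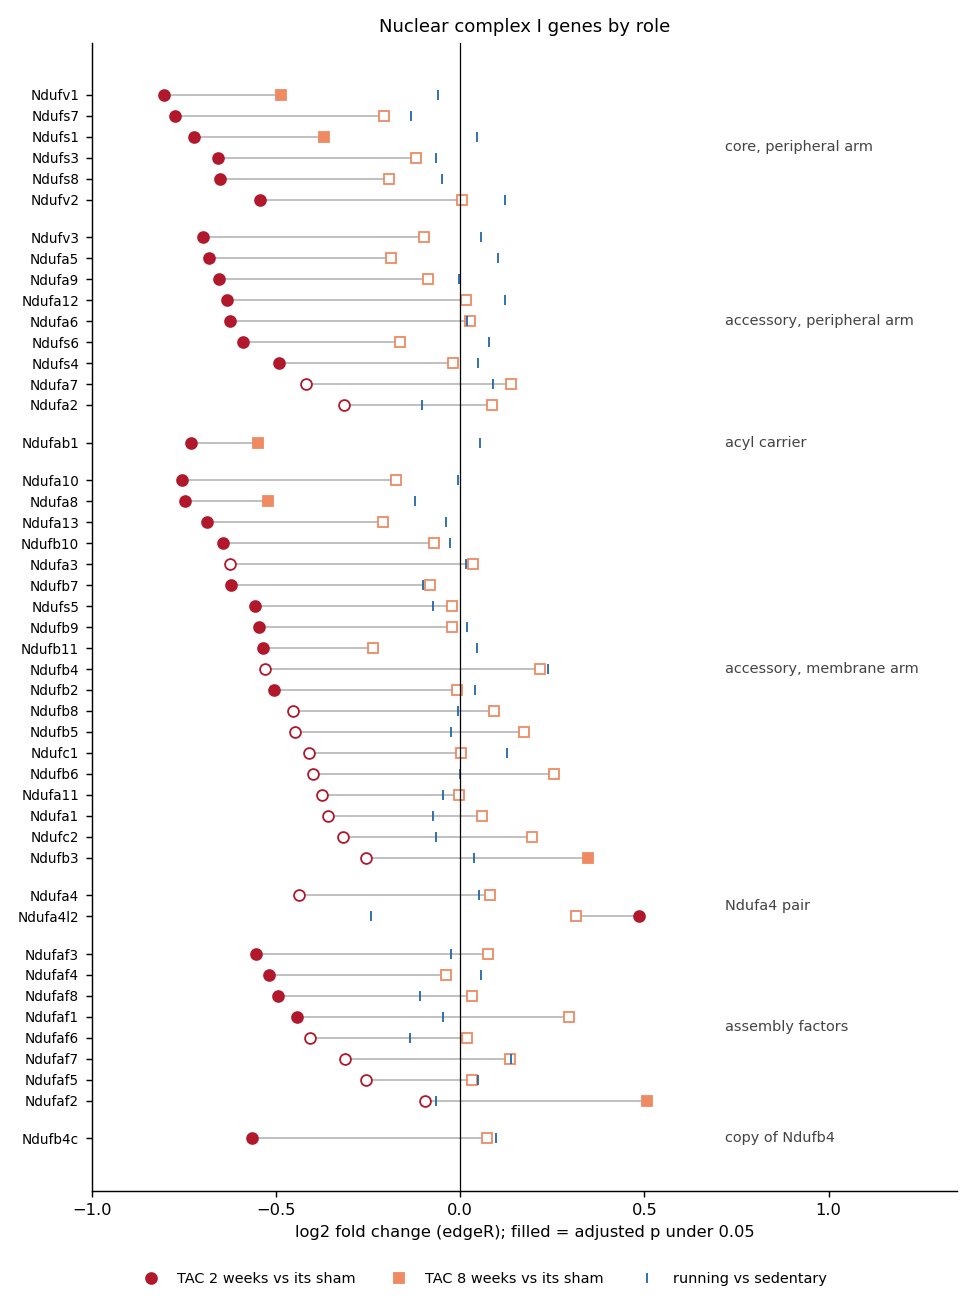
Log2 fold changes of 46 of the 47 tested nuclear complex I genes by role, with 2-week TAC against Sham-LVH (circles), 8-week TAC against Sham-HF (squares) and running against sedentary (ticks); filled circles and squares passed an adjusted p under 0.05. At 2 weeks 28 of the genes shown are called lower and Ndufa4l2 higher, at 8 weeks 4 are called lower and 2 higher, and the running values lie between -0.24 and 0.24.

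Other genes of the pathway, from lists chosen by function, were lower in 2-week TAC hearts as well. All 7 mt-Nd genes, the core of the membrane arm, were called lower, with a median log2 fold change of -0.79. mt-Nd2 had -0.87 ± 0.14 (SE; edgeR adjusted p = 3.4e-04) and mt-Nd4 -0.78 ± 0.13 (SE; edgeR adjusted p = 6.0e-04), both as log2 fold changes. The sum over mt-Nd genes was 13648, 17754, 19187 and 16818 normalized CPM in TAC-LVH, against 31311, 29716, 26371 and 29633 in Sham-LVH, with no overlap. Of 12 other assembly factors 7 were called lower, among them Ecsit (-0.61 ± 0.10, SE; edgeR adjusted p = 3.5e-04) and the oxidoreductase Foxred1 (-0.61 ± 0.11, SE; edgeR adjusted p = 7.4e-04).

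Among 13 regulators of mitochondrial genes, 8 were called lower. Ppargc1a, the coactivator that drives mitochondrial biogenesis, had 29.1, 34.7, 34.1 and 27.8 normalized CPM in TAC-LVH, against 56.5, 69.1, 66.7 and 59.4 in Sham-LVH (log2 fold change -0.99 ± 0.10, SE; edgeR adjusted p = 1.6e-05). Ppara, the nuclear receptor of fatty acid oxidation, had a log2 fold change of -1.13 ± 0.10 (SE; edgeR adjusted p = 3.7e-06), and Esrra, an estrogen-related receptor, one of -0.69 ± 0.10 (SE; edgeR adjusted p = 2.2e-04). Nrf1, whose protein binds the NRF1 motif above, had 0.21 ± 0.12 (SE; edgeR adjusted p = 0.20) and was not called.

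Markers of cell types moved with the comparison. Of 14 cardiomyocyte markers 10 were called lower (median log2 fold change -0.46), and their summed level was 38418 to 45745 normalized CPM in TAC-LVH, against 57114 to 63872 in Sham-LVH. All 10 fibroblast markers were called higher (median 2.10), with sums of 2207 to 3545 in TAC-LVH, against 520.3 to 752 in Sham-LVH. Of 10 macrophage markers 8 were called higher (median 0.67), with sums of 244 to 329 in TAC-LVH, against 135 to 198 in Sham-LVH. No marker of these 3 lists was at 0 in any library. As a percentage of the cardiomyocyte marker sum, the complex I subunits stood at 3.62, 5.51, 5.01 and 4.19% in TAC-LVH, against 4.48, 4.92, 5.80 and 4.70% in Sham-LVH, and these ranges overlapped. Such a sum weighs the most abundant markers most and is not a measure of cardiomyocyte content. What part the cell make-up has in the decrease was not tested.

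Within a group the complex I genes moved together by library. TAC-LVH 1 was the lowest of its group in 45 of 47 genes, and Sham-LVH 3 was the highest of its group in 43 of 47. Without both libraries, a choice made after their values were seen, 19 of 47 genes were called lower, against 1974 of all 14250. The median log2 fold change of the complex I genes was then -0.32. With library totals in place of TMM scaling, which moved the median of all genes to 0.41, 7 of 47 were called lower, against 4.32% of all genes. In that setting 1 of 47 was called higher, against 49.2%, and the median of the complex I genes was -0.16.

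After 8 weeks of TAC, most nuclear complex I genes were not called different from Sham-HF hearts. Of the 47, 5 (10.6%) were called lower, against 14.7% of all 13621 genes tested, and 2 (4.26%) were called higher, against 14.9%. Among the 5 were the core subunits Ndufv1 and Ndufs1, the membrane-arm subunit Ndufa8 and the acyl carrier gene Ndufab1, and all 5 were also called lower at 2 weeks. The 2 higher genes were Ndufb3 and the assembly factor Ndufaf2. The median log2 fold change was 0.0010, against 0.0035 over all genes tested.

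Summed over the 36 subunit genes, the level was 2606, 2259, 2936 and 2354 normalized CPM in TAC-HF, against 2768, 2872, 2862 and 2631 in Sham-HF, so that 1 TAC-HF library lay above all shams. All 4 TAC libraries lay below all shams in 6 of 47 genes, against 14.6% of all genes tested, and above in 4, against 14.9%. TAC-HF 3 was the highest of its group in 40 of 47 genes. Without TAC-HF 3, 12 of 47 genes were called lower, against 1663 of all 13836 genes tested. Without TAC-HF 2, 5 of 47 were called higher, against 2096 of all 13774.

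Ndufab1 showed the steepest decrease at 8 weeks. It had 31.1, 28.2, 31.0 and 31.8 normalized CPM in TAC-HF, against 46.5, 45.5, 44.0 and 42.6 in Sham-HF, with a log2 fold change of -0.55 ± 0.08 (SE; edgeR adjusted p = 1.6e-04). No TAC-HF library came near the lowest sham. Ndufa8 had 21.6, 21.1, 25.1 and 21.5 normalized CPM in TAC-HF, against 30.6, 33.8, 31.9 and 31.8 in Sham-HF (log2 fold change -0.52 ± 0.08, SE; edgeR adjusted p = 4.7e-04). Its groups did not overlap, and TAC-HF 3 stood above the other TAC libraries.

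Ndufv1 and Ndufs1 did not overlap with their shams either. Ndufv1 had 154, 136, 159.8 and 125 normalized CPM in TAC-HF, against 188, 212, 203 and 203 in Sham-HF (log2 fold change -0.49 ± 0.09, SE; edgeR adjusted p = 0.0016). Ndufs1 had 219, 207, 222 and 205 normalized CPM in TAC-HF, against 265, 293, 283 and 261 in Sham-HF (log2 fold change -0.37 ± 0.08, SE; edgeR adjusted p = 0.0035). Of the core genes Ndufs7, Ndufs8, Ndufs3 and Ndufv2 none was called: Ndufs7 (-0.21), Ndufs8 (-0.19) and Ndufs3 (-0.12) had negative log2 fold changes and Ndufv2 had 0.0056.

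No accessory subunit of the peripheral arm was called at 8 weeks by edgeR or DESeq2, and none had an unadjusted edgeR p under 0.05. The smallest p in that group belonged to Ndufa5, with 45.9, 39.8, 53.2 and 40.6 normalized CPM in TAC-HF, against 48.3, 53.4, 51.3 and 51.6 in Sham-HF (log2 fold change -0.19 ± 0.10, SE; edgeR adjusted p = 0.16). Next came Ndufs6, a zinc-binding subunit added late in assembly, with 44.6, 39.6, 51.7 and 37.8 normalized CPM in TAC-HF, against 47.3, 50.9, 51.2 and 45.2 in Sham-HF (log2 fold change -0.16 ± 0.10, SE; edgeR adjusted p = 0.24). In both genes TAC-HF 3 reached the range of the shams.

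Ndufb3, a small membrane-arm subunit, had 30.5, 26.0, 35.2 and 28.5 normalized CPM in TAC-HF, against 23.7, 25.4, 24.3 and 21.0 in Sham-HF (log2 fold change 0.35 ± 0.10, SE; edgeR adjusted p = 0.019). Ndufaf2, a relative of the subunit Ndufa12 that binds the complex late in its assembly, had 3.64, 2.82, 3.00 and 3.53 normalized CPM in TAC-HF, against 1.95, 2.53, 2.25 and 2.40 in Sham-HF (log2 fold change 0.51 ± 0.16, SE; edgeR adjusted p = 0.027). In both genes every TAC-HF library was above every sham, with TAC-HF 2 nearest to them. Ndufb3 was not called without TAC-HF 3 or without Sham-HF 4 (edgeR adjusted p up to 0.079), nor was Ndufaf2 without TAC-HF 1 or 4 or without Sham-HF 1, 3 or 4 (edgeR adjusted p up to 0.074).

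Ndufaf1 also lay above its shams without being called: it had 16.0, 12.9, 15.9 and 12.0 normalized CPM in TAC-HF, against 11.6, 11.5, 11.7 and 11.3 in Sham-HF (log2 fold change 0.29 ± 0.11, SE; edgeR adjusted p = 0.054). Ndufa4l2 had 2.73, 3.28, 2.83 and 2.60 normalized CPM in TAC-HF, against 2.04, 2.18, 2.45 and 2.57 in Sham-HF (log2 fold change 0.31 ± 0.16, SE; edgeR adjusted p = 0.15). Ndufa4 had 157, 136, 178 and 144 normalized CPM in TAC-HF, against 142, 157, 155 and 127 in Sham-HF, with overlap and a log2 fold change of 0.08 ± 0.10 (SE; edgeR adjusted p = 0.58). The groups of Ndufa4l2 were apart, TAC-HF 4 lying just over Sham-HF 4. Ndufb4c had 30.0, 21.6, 28.7 and 18.6 normalized CPM in TAC-HF, against 23.8, 22.4, 25.3 and 22.5 in Sham-HF, a spread wider than the difference.

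**Figure D3:**
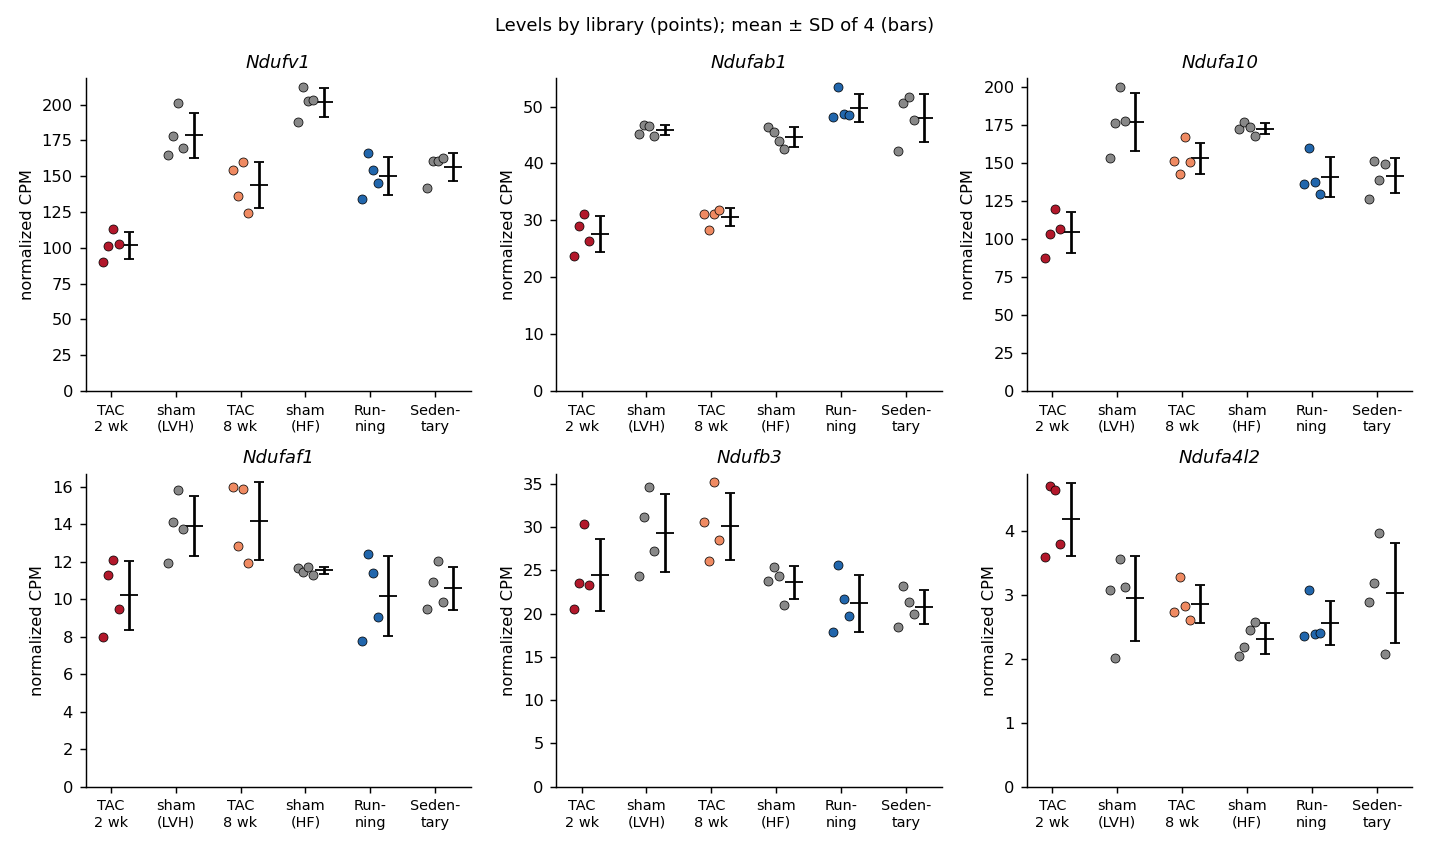
Normalized CPM of 6 complex I genes in every library, on linear axes from 0 that differ between panels; points are libraries and bars the mean and SD of 4. Ndufv1 and Ndufab1 lie below their shams after 2 and 8 weeks of TAC, and Ndufa10 lies below its shams at 2 weeks and just below them at 8 weeks. Ndufaf1 and Ndufb3 overlap their shams at 2 weeks and lie above them at 8 weeks. Ndufa4l2 lies above its shams at both times.

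The mitochondrially encoded partners were lower at 8 weeks too. All 7 mt-Nd genes were called lower, with a median log2 fold change of -0.66, and their sum was 17606, 20238, 18308 and 16587 normalized CPM in TAC-HF, against 25480.1, 30466, 27418 and 33398 in Sham-HF. The groups did not overlap. Divided by the nuclear subunit sum, the mt-Nd sum was 6.76, 8.96, 6.24 and 7.05 in TAC-HF, against 9.20, 10.6, 9.58 and 12.7 in Sham-HF, and 8.97, 8.38, 8.37 and 8.88 in TAC-LVH, against 12.2, 9.45, 7.34 and 10.6 in Sham-LVH. The TAC-HF values lay below all shams, and the TAC-LVH values overlapped theirs. mt-Nd4 had a log2 fold change of -0.76 ± 0.11 (SE; edgeR adjusted p = 1.5e-04) and mt-Nd5 one of -0.80 ± 0.12 (SE; edgeR adjusted p = 2.0e-04).

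Of the 13 regulators 7 were called lower at 8 weeks. Ppargc1a had 51.1, 77.8, 39.7 and 46.9 normalized CPM in TAC-HF, against 162, 148, 147 and 127 in Sham-HF (log2 fold change -1.44 ± 0.19, SE; edgeR adjusted p = 6.0e-04). Sham-HF had the highest Ppargc1a mean of the 6 groups, 146 normalized CPM, against 62.9 in Sham-LVH, 72.7 in running and 76.8 in sedentary hearts. The TAC-HF libraries overlapped those last 3 groups, and their mean of 53.9 was above that of TAC-LVH, 31.4. The Ppargc1a effect at 8 weeks minus that at 2 weeks was -0.44 ± 0.22 (SE; edgeR adjusted p = 0.28) and was not called. Ppargc1b, a relative of Ppargc1a, had -1.04 ± 0.18 at 8 weeks (SE; edgeR adjusted p = 0.0012), Esrra -0.31 ± 0.10 (SE; edgeR adjusted p = 0.028) and Nrf1 -0.34 ± 0.12 (SE; edgeR adjusted p = 0.039). Of the 12 other assembly factors 3 were called lower, among them Tmem186 (-0.41; edgeR adjusted p = 0.010), and 2 higher, among them Tmem126a (0.37; edgeR adjusted p = 0.019).

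Cell type markers moved at 8 weeks as well. Of 14 cardiomyocyte markers 4 were called lower and 2 higher (median log2 fold change -0.088), with sums of 46990 to 55782 normalized CPM in TAC-HF, against 60548 to 64037 in Sham-HF. Myh6, at -0.79, was among the lower ones and Mybpc3, at 0.33, among the higher ones, and the sum weighs abundant markers most. Fibroblast markers were called higher in 9 of 10 (median 1.43), with sums of 1146 to 1714 in TAC-HF, against 439.9 to 596 in Sham-HF, and macrophage markers in 8 of 10 (median 0.72), with sums of 164 to 241 in TAC-HF, against 101 to 153 in Sham-HF. Complex I subunits were 5.01, 4.05, 6.25 and 4.40% of the cardiomyocyte marker sum in TAC-HF, against 4.55, 4.53, 4.73 and 4.11% in Sham-HF, with overlap. Their part in the result was not tested. With library totals in place of TMM scaling, which moved the median of all genes to 0.33, the median of the complex I genes was also 0.33. Then 25 of 47 were called higher, against 44.6% of all genes, and 0 of 47 lower, against 4.17%. By edgeR, 0 were lower at an unadjusted p under 0.05.

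**Figure D4:**
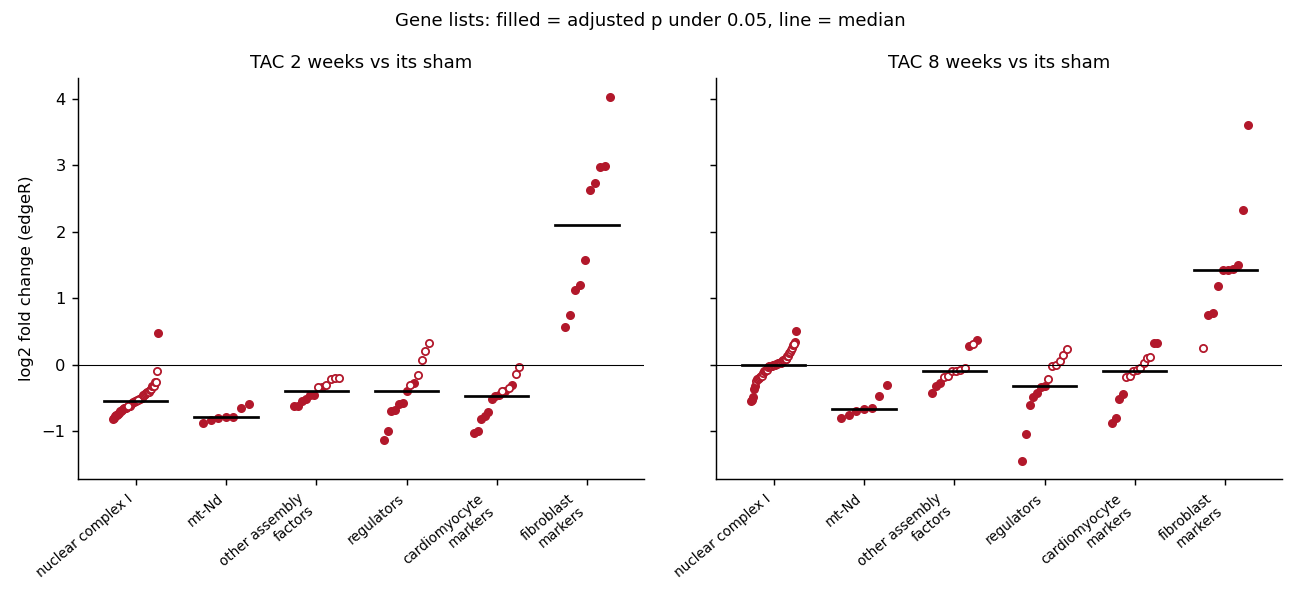
Log2 fold changes of each tested gene (points, filled where the adjusted p was under 0.05) and their median (line) for the nuclear complex I genes and 5 other lists in TAC at 2 weeks (left) and 8 weeks (right). The medians are -0.54 and 0.0010 for the nuclear complex I genes, -0.79 and -0.66 for the 7 mt-Nd genes and 2.10 and 1.43 for the fibroblast markers.

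The effect of TAC at 8 weeks was compared directly with that at 2 weeks, each against its own shams. The difference was positive for 46 of 47 complex I genes, that is, the effect was less negative or more positive at 8 weeks, with a median of 0.53 on the log2 scale against -0.013 over all genes tested. Of the 47, 2 passed the adjusted test with a positive difference, against 0.933% of all 14463 genes tested, and 0 with a negative one, against 0.422% (edgeR; DESeq2 also called 0 negative). They were Ndufa10 (0.59 ± 0.14, SE; edgeR adjusted p = 0.046) and Ndufaf1 (0.74 ± 0.18, SE; edgeR adjusted p = 0.047). At an unadjusted p under 0.05, 35 genes passed with a positive difference and 0 with a negative one. For this and the unadjusted counts below, the share of all genes was not taken. The complex I genes moved together by library, so these counts are not counts of independent results.

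At 8 weeks Ndufa10 had 152, 143, 167 and 151 normalized CPM in TAC-HF, against 173, 177, 174 and 168 in Sham-HF, which leaves it just below its shams. Both calls were lost when any of 13 of the 16 libraries was left out, that is, any but TAC-LVH 3, Sham-LVH 1 and TAC-HF 2. Without TAC-LVH 3, 6 complex I genes were called higher, against 358 of all 14631. Without Sham-LVH 1 there were 10, against 437 of all 14655. Without TAC-HF 2 there were 2, against 257 of all 14656. Without both TAC-LVH 1 and Sham-LVH 3, edgeR called 0 of the 47, with 13 at an unadjusted p under 0.05. Of all 14551 genes, that fit called 3 in each direction. DESeq2 called 8 higher on all 16 libraries, against 430 of all 14463 genes. With library totals in place of TMM scaling, edgeR called 0 with a positive difference, against 0.0968% of all genes (29 at an unadjusted p under 0.05), and 0 with a negative one, against 0.111% (0 unadjusted), with a median of 0.46. Among genes called lower at both times, the differences were 0.19 for Ndufab1, 0.23 for Ndufa8, 0.32 for Ndufv1 and 0.36 for Ndufs1, with edgeR adjusted p between 0.17 and 0.44. For the 7 mt-Nd genes the median difference was 0.19, and 0 were called by edgeR or by DESeq2 (0 at an unadjusted edgeR p under 0.05).

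The levels in the 2 sham groups enter this difference. Sham-LVH had the highest mean of the 6 groups in 39 of 47 genes, and its mean was above that of Sham-HF in 44 of 47. With the shams left aside, 10 of 47 complex I genes were called higher in TAC-HF than in TAC-LVH hearts, against 10.8% of all 14084 genes tested. In the same fit 1 of 47 was lower, against 9.29%, and the median log2 fold change was 0.31. Set against Sham-HF in place of its own shams, 2-week TAC had 22 of 47 genes called lower, against 22.8% of all 13893 genes. It had 1 of 47 called higher, against 22.4%, and a median of -0.33. Set against Sham-LVH, 8-week TAC had 5 of 47 called lower, against 11.6% of all 13783 genes. By edgeR it had 0 of 47 higher, against 11.8%, with 0 at an unadjusted p under 0.05, and a median of -0.22. In the labels, time after surgery and whatever else separates the 2 TAC cohorts cannot be told apart.

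No complex I gene was called after wheel running. None of the 47 was called by edgeR, against 0% of all 13824 genes tested, and none had an unadjusted edgeR p under 0.05. DESeq2 called 4 genes higher and 5 lower, and none of them belonged to complex I. The median log2 fold change was -0.0035, against 0.0053 over all genes. In no complex I gene did the 4 running libraries lie all above or all below the 4 sedentary ones, a separation seen in 1.48% of all genes in each direction.

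The sums over the 36 subunits were 2150.2, 2654, 2345 and 2118 normalized CPM in running hearts, against 2038, 2467, 2414 and 2349 in sedentary hearts. Running 2 was the highest of its group in 41 of 47 genes and Sedentary 1 the lowest of its group in 37. The smallest p belonged to Ndufb4, with 19.1, 25.1, 23.2 and 17.6 normalized CPM in running hearts, against 15.5, 21.4, 20.3 and 15.3 in sedentary hearts (log2 fold change 0.24 ± 0.14, SE), under the same reserve about its copy. Ndufa4l2 had 2.35, 3.07, 2.39 and 2.41 normalized CPM in running hearts, against 2.89, 3.19, 3.97 and 2.08 in sedentary hearts (log2 fold change -0.24 ± 0.19, SE). Both had an edgeR adjusted p of 0.9996. Among the genes lower after TAC, Ndufab1 had 49.7 ± 2.50 normalized CPM in running hearts and 48.0 ± 4.24 in sedentary hearts, and Ndufv1 had 149.9 ± 13.4 normalized CPM in running hearts and 156 ± 9.76 in sedentary hearts (SD, n = 4 each).

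None of the 7 mt-Nd genes was called after running by edgeR or DESeq2, 5 had an unadjusted edgeR p under 0.05, and all 7 log2 fold changes were positive, with a median of 0.20. Their sums, 30016, 28909, 28526 and 28056 normalized CPM in running hearts against 26137, 24843, 25080.5 and 24700.1 in sedentary hearts, did not overlap. This separation depended on the TMM factors, which were lowest in Running 4 among all libraries. Before scaling, mitochondrially encoded genes together took 62.1% to 73.6% of counts in running libraries and 62.4% to 69.9% in sedentary libraries, with overlap. That share is of all mitochondrially encoded genes and not of the mt-Nd genes alone. Ppargc1a varied as much within as between these groups, with 111, 52.9, 50.1 and 76.8 normalized CPM in running hearts against 124, 52.1, 47.9 and 83.8 in sedentary hearts. No list of cell type markers had a called gene in this comparison by edgeR.

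The TAC effects were also set against the running effect. At 2 weeks the TAC effect was lower than the running effect in 24 of 47 genes, against 9.56% of all 14729 genes tested, and higher in 0, against 9.5% (edgeR; 1 at an unadjusted p under 0.05 and 0 by DESeq2), with a median difference of -0.57 on the log2 scale. Ndufab1 (-0.79 ± 0.13, SE; edgeR adjusted p = 2.5e-04) was among the 24. The count was 11 without TAC-LVH 1, against 1028 of all 14894 genes, and 11 without Running 2, against 1128 of all 14896. It was 13 or 14 without TAC-LVH 4, Sham-LVH 2, Sham-LVH 3 or Sedentary 1, against 1097 to 1238 of all genes. Without both TAC-LVH 1 and Sham-LVH 3 it was 6, against 986 of all 14827. At 8 weeks it was lower in 3 genes, against 5.35% of all 14252 genes tested: Ndufab1 (-0.59 ± 0.11, SE; edgeR adjusted p = 0.0021), Ndufs1 (-0.41 ± 0.13, SE; edgeR adjusted p = 0.043) and Ndufv1 (-0.42 ± 0.13, SE; edgeR adjusted p = 0.046). It was higher in 0 genes, against 5.74% (edgeR; 2 at an unadjusted p under 0.05 and 0 by DESeq2). Of the 16 libraries, 12 brought this count down to 1 when left out singly, and these were TAC-HF 1, 2 and 4, Sham-HF 2, 3 and 4, Running 2 and 3 and all 4 Sedentary libraries. With library totals in place of TMM scaling, 2-week TAC had 0 genes lower than running, against 1.45% of all genes (edgeR; 0 at an unadjusted p under 0.05), and 1 higher, against 30.6%, with a median of -0.095 where that of all genes moved to 0.48. At 8 weeks it had 0 lower, against 170 of all 14252 genes (edgeR; 0 unadjusted), and 4 higher, against 3028, with a median of 0.37 where that of all genes moved to 0.39.

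Across the 6 groups, the summed subunit level averaged 1956 ± 333 normalized CPM in TAC-LVH and 3020.4 ± 451 in Sham-LVH, 2539 ± 303 in TAC-HF and 2783 ± 112 in Sham-HF, and 2317 ± 246 in running and 2317 ± 192 in sedentary hearts (SD, n = 4 each). In order of level, each group overlapped its neighbours. TAC-LVH libraries reached up to 2292 normalized CPM, inside the ranges of running (2118 to 2654) and sedentary (2038 to 2467) hearts, so that only their own shams and Sham-HF lay wholly above them. The mean of TAC-LVH was below that of sedentary hearts in 29 of 47 genes and below that of Sham-HF in 44. Ndufab1 and Ndufa8 differed from this order: their highest means were in running (49.7 ± 2.50 normalized CPM) and sedentary (38.3 ± 5.73 normalized CPM) hearts, and both TAC groups lay below all other groups.

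Called in neither TAC comparison were 15 of the 47: Ndufa4, Ndufa1, Ndufa2, Ndufa3, Ndufa7, Ndufa11, Ndufb4, Ndufb5, Ndufb6, Ndufb8, Ndufc1, Ndufc2, Ndufaf5, Ndufaf6 and Ndufaf7. Of the 15 genes with exons that overlap another annotated gene, Ndufs1 overlaps Eef1b2 (log2 fold changes of 0.11 at 2 weeks and 0.40 at 8 weeks) and Ndufaf3 overlaps Impdh2 (-0.08 at 2 weeks), both on the opposite strand. How far reads of such partners were split correctly was not tested.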

How the data were processed

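Gene counts were made by the authors with FastQC and Salmon on the build mm9, per the submitters' processing notes; versions, transcript annotation and strand setting are not given in these sources. The deposited values are estimated counts per gene (Salmon's expected counts) written as whole numbers, not scaled to depth, and 1 row without a gene name held 0% of counts and was left out. Symbols came from GENCODE M21 (GRCm38), which named 42462 identifiers and left 970 unnamed. The tests used edgeR 4.0.16 under R 4.3.3, with filterByExpr, TMM factors, a robust quasi-likelihood fit, a two-sided F test and Benjamini-Hochberg adjustment over all genes tested, with each comparison on its own 8 libraries and each difference between effects on 16. SE is the log2 fold change divided by the square root of F. DESeq2 1.42.0 and the other settings under the closing section are alternatives. Transcript copies were looked for with blastn 2.17.0 (at least 95% identity over 200 bases). The lowest chi-square per degree of freedom between replicates was 7.0, so no library was counted as a duplicate. The edgeR step was tested on simulated counts.

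The complex I genes, the other lists and the rule for named genes were chosen with earlier results of these data known. Values are given, for each role group and TAC comparison, of the 2 genes of smallest p, of the 4 largest called decreases, every called increase, the genes called in the difference between TAC effects, the 2 smallest p in running, and Ndufa4, Ndufa4l2 and Ndufab1. One gene that this rule takes is not reported here, though counts and sums over all complex I genes include it. Of other lists, the 2 smallest p may be named and Ppargc1a, Esrra and Nrf1 always are, and the partners of overlapping genes were added after values were seen. Of the marker lists not described in the results, endothelial markers were called higher in 6 of 10 at 2 weeks and 0 of 10 at 8 weeks (edgeR), smooth muscle and pericyte markers were called higher in 5 and lower in 2 of 10 at 2 weeks and higher in 3 and lower in 2 at 8 weeks, and erythroid markers were called higher in 2 of 5 at 8 weeks. Of 6 adipocyte markers only Fabp4 had the counts to be tested in the TAC and running comparisons, and it was not called. Promoter sequences are RefSeq's, on GRCm38.p6.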

Additional observations from a re-analysis of the deposited data

Results flagged for a closer look

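Single libraries stood apart from the other 3 of their group in 7 of 132 groups of 4 values examined for the named genes and sums, by Dixon's test at the 95% level. Chance gives such a result in about 1 of 20 groups. Sedentary 1 was the low library for 4 of them. It had 193 normalized CPM of Ndufs1, against 202 to 204 in the other 3, and 142 of Ndufv1, against 160.5 to 162. It also had 1.78 normalized CPM of Ndufaf2, against 2.52 to 2.59, and 50.8 of the summed assembly factors, against 55.8 to 56.5. Running 2 was high, with 3.07 normalized CPM of Ndufa4l2, against 2.35 to 2.41 in the other 3, and 53.5 of Ndufab1, against 48.2 to 48.7. TAC-HF 3 was high for Ndufa8, with 25.1 normalized CPM against 21.1 to 21.6.

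The effect of TAC differed between 8 and 2 weeks for Ndufa10 by 0.59 on the log2 scale (edgeR adjusted p = 0.046) and for Ndufaf1 by 0.74 (edgeR adjusted p = 0.047). Thus 2 of the 47 genes were called higher by edgeR on all 16 libraries, against 0.933% of all genes tested. Both calls were lost in most fits that left out a single library. The effect of TAC at 2 weeks was below that of running in 24 of the 47 genes, against 9.56% of all genes tested. The effect at 8 weeks was below it in 3 of the 47, against 5.35%.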

How the results depend on the processing

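In the labels, same-numbered TAC, sham, running and sedentary libraries share only a number, and whether they were paired is not stated. Deviations of same-numbered libraries from their group means correlated between -0.27 and 0.47, and not every library correlated best with its own number. TAC-LVH 3 (0.26), TAC-HF 2 (0.13), TAC-HF 3 (0.11), Running 1 (0.47) and Running 2 (0.30) did. With the replicate number as a block, 44 complex I genes were called lower at 2 weeks, against 2676 of all 14224 genes. At 8 weeks 1 was called higher, against 1769 of all 13621. A higher effect at 8 than at 2 weeks was called for 27, against 480 of all 14463. A higher effect of 2-week TAC than of running was called for 1, against 1746 of all 14729. For running against sedentary, 25 of all 13824 genes were called higher and 22 lower, with 0 complex I genes in either direction.

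With library totals in place of TMM factors, 7 genes were called lower at 2 weeks, against 4.32% of all genes. At 8 weeks 25 were higher, against 44.6%, and 0 lower, against 4.17%. In the difference between times 0 were higher, against 0.0968%. Set against running, 1 was higher at 2 weeks, where 30.6% of all genes were, and 0 lower, where 1.45% were. At 8 weeks 4 were higher, where 3028 of all 14252 genes were, and 0 lower, where 170 were. Among the genes followed singly at 8 weeks, that scaling turned the log2 fold changes of Ndufa5 (0.14) and Ndufs6 (0.16). Signs of the other complex I genes were not followed, and the median of all 47 moved from 0.0010 to 0.33. Calls of the mt-Nd genes with library totals were not counted, for TAC or for running. In a fit of all 24 libraries 1 gene was called higher at 8 weeks, 1 in the difference between times and 1 for 2-week TAC against running. Of all 14735 genes, that fit called 2023, 106 and 1470 higher, in the same order. DESeq2 called 8 in the difference between times, against 430 of all 14463 genes. Without a filter on low counts, 1 had a lower effect in 8-week TAC than in running, against 612 of all 26285.

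Chosen after seeing the data were other shams and library choices. Against Sham-LVH, 0 genes were higher at 8 weeks, where 11.8% of all genes were. The log2 fold changes of Ndufa4l2 (-0.062), Ndufa4 (-0.17) and Ndufb4c (-0.26) were negative. TAC groups without shams gave 10 genes higher and 1 lower at 8 than at 2 weeks, against 10.8% and 9.29% of all genes. Without TAC-LVH 1 and Sham-LVH 3, 19 genes were lower at 2 weeks, 0 differed between times, and against running 1 was higher and 6 were lower. Of all genes, those fits had 1974 lower at 2 weeks and 3 in each direction between times. For 2-week TAC against running they had 1043 higher and 986 lower.

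With 1 library left out at a time, 21 to 39 genes were lower and 0 to 1 higher at 2 weeks, 5 to 12 lower and 0 to 5 higher at 8 weeks, and 0 to 10 higher in the difference between times; against running, 11 to 29 were lower and 0 to 1 higher at 2 weeks and 1 to 4 lower at 8 weeks. Of all genes, these fits had 1863 to 2284 lower and 2057 to 2358 higher at 2 weeks. They had 1525 to 2108 lower and 1446 to 2096 higher at 8 weeks, and 16 to 437 higher in the difference. Against running they had 1028 to 1477 of all genes lower and 1141 to 1442 higher at 2 weeks, and 499 to 924 lower at 8 weeks. The log2 fold change of Ndufb4c at 8 weeks lay between -0.031 and 0.19, at -0.031 without TAC-HF 1 and -0.0097 without TAC-HF 3. For running against sedentary the count was 0 in each direction under every alternative that was run. The cause of these shifts was not tested. Genes such as Ndufaf2, at 1.68 to 3.64 normalized CPM, rest on few counts, which limits their precision, and each group's spread rests on 4 libraries.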
